A study of Mus musculus with 4 samples.

Results

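Immediate early genes are transcribed within minutes of a stimulus, without the need for new protein synthesis, and their RNAs decay fast. The AP-1 branch encodes transcription factors that bind DNA as dimers, in which a Jun protein pairs with another Jun, a Fos or an Atf protein, and the Egr branch encodes zinc-finger factors. In blood stem and progenitor cells they respond to cytokines, adhesion and stress, and also to the handling of tissue. The 10 genes described here, of 27998 in the files, were taken by symbol: Jun, Junb and Jund (the Jun proteins), Fos and Fosb (the Fos proteins), Atf3 (a stress-responsive partner and often a repressor), Egr1, Egr2 and Egr3 (the zinc-finger factors) and Ier2 (a small nuclear protein of the same early response). All 10 symbols were found once.

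LSK cells, the Lin-, Sca1+ and cKit+ fraction of bone marrow that holds stem cells and multipotent progenitors, were sequenced one by one in 4 libraries from mice 9 to 12 weeks old. The mice of the 2 control libraries (wild-type in the labels) were Nup358 fl/fl, and those of the 2 knockout libraries were Nup358 fl/fl CreERT2, in which a tamoxifen-regulated Cre made in all tissues from the R26 locus removes an exon of the nucleoporin gene. Mice of both genotypes carried the floxed allele and were given tamoxifen, and the control mice lacked the Cre, so that effects of Cre and of the deletion cannot be told apart. Each library pooled the marrows of 3 animals, and the deletion was not confined to blood cells.

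The 4 libraries did not hold independent barcodes. Of 25242 deposited barcodes, 24973 passed the filters (4233 to 9198 a library), and 6680 barcode sequences occurred in more than 1 library. A barcode that had at least 3 times as many unique molecular identifiers (UMIs, counted molecules) in another library was called copied, which held for 10936 of the deposited barcodes (43.3%). Copied barcodes made up 14.8% of control replicate 1, 81.8% of control replicate 2, 65.3% of knockout replicate 1 and 18.8% of knockout replicate 2, but at most 24.7% of the UMIs of a library. The median depth of kept cells was 5333, 1036, 1090 and 12026 UMIs in the same order. By this median, which counts copied barcodes, each genotype had 1 deep and 1 shallow library. The summed level of 4 plasma cell markers was 125 and 270 CPM in controls (a gene's UMIs as a share of all UMIs summed in the cells, scaled to a common total) and 613 and 438 in knockouts, with 0 of the 4 genes called, and its part in the results was not tested. Control replicate 2 stood apart in 2 other lists, with 1630 CPM of 6 granulocyte markers and 1053 of 4 red cell markers against 174 to 323 and 131 to 235 in the other libraries, and no gene of either list, of 5 macrophage markers or of 5 T or NK cell markers was called. Kit and Ly6a, which encode cKit and Sca1, were detected in every library. The Ranbp2 gene, which encodes Nup358, was read at 106 to 127 CPM in all 4 libraries, and its 3′ tags lie outside the deleted exon, so that they do not check the genotype.

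The promoters of 5 genes of this family are shown, each with 1 window in the promoter table. Jund also had 1 window, which was left out of the print and held none of the elements named below. Each line gives the 150 bases before the transcription start in RefSeq on GRCm38.p6, read 5′ to 3′ on the gene's own strand. The capitals mark matches, on either strand, to TGACG (the half-site of the cAMP response element), TGANTCA (the AP-1 element) or TGACNTCA (its longer form).
Jun, chr4:95052223-95052372, minus strand: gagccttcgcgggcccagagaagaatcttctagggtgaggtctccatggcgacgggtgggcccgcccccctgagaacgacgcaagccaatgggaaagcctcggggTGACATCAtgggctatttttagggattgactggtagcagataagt
Junb, chr8:84978749-84978898, minus strand: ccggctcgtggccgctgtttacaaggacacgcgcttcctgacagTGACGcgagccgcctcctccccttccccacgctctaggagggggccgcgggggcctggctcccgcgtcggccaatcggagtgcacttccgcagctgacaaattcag
Fos, chr12:85473740-85473889, plus strand: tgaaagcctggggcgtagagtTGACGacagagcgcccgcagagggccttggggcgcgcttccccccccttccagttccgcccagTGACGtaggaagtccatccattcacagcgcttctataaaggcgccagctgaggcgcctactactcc
Fosb, chr7:19310046-19310195, minus strand: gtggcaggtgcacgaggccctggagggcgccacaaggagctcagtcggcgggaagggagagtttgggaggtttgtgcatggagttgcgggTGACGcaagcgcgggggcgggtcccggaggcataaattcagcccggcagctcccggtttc
Atf3, chr1:191183334-191183483, minus strand: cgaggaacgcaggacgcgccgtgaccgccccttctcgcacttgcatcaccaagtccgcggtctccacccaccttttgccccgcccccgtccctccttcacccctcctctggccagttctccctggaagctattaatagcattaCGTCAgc
TGACG was found in 4 of these 5 windows, at 66 to 62 and 129 to 125 bases before the start of Fos, 60 to 56 before Fosb, 106 to 102 before Junb and 7 to 3 before Atf3. Of the 6 windows of members that are not printed (5 starts of Egr2 and 1 of Jund), 3 held it, all of Egr2, which makes 7 of 11 in all. The same letters were in 13.3% of all 32851 promoter windows of this length, and windows of 1 gene can overlap. Jun held TGACNTCA at 45 to 38 bases before its start, a match found in 5.7% of all windows and overlapping TGACG only where N is G. TGANTCA, the CArG box of serum response factor and the Egr element GCGGGGGCG were also searched on both strands, and they were in 4.24%, 0.916% and 2.09% of all windows. Of these, the printed windows held only the Egr element of Fosb, at 50 to 42 bases, and 4 of the 5 Egr2 windows held a CArG box. These matches describe letters and not bound sites, and the Atf3 window is that of a start inside the gene.

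Over all kept LSK cells, each of the 10 genes was lower in both knockout libraries than in both control libraries (the plot of levels by library), as were 24.5% of the 13844 genes tested. UMIs were summed over the cells of a library and tested over 13844 genes with the quasi-likelihood test of edgeR, p-values being adjusted after Benjamini and Hochberg. In such sums fewer expressing cells and less RNA per cell cannot be told apart. Of the 10 genes, 6 passed an adjusted p of 0.05 and all 6 were lower, while 2.09% of all genes tested were called lower and 0.91% higher. Without the copied barcodes 7 passed, beside 2.07% of all genes called lower. The median log2 fold change of the 10 was -1.25, and the median over all genes was -0.01.

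**Figure D1:**
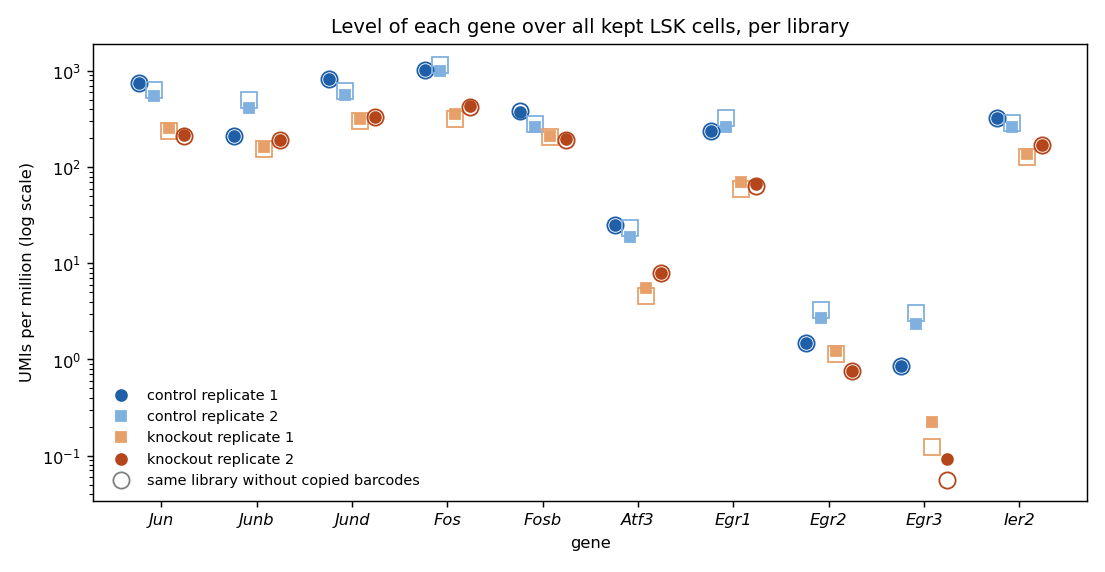
CPM (log scale) of the 10 genes over all kept LSK cells, 1 filled symbol per library and 1 open symbol for the same library without copied barcodes. For every gene both knockout symbols lie below both control symbols, and leaving out copied barcodes moved the libraries with many of them away from the other genotype for Jun, Fos and Egr1.

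Among the Jun genes, Jun was at 744 and 550 CPM in controls and at 258 and 218 in knockouts. Its log2 fold change was -1.47 (SE 0.17, adjusted p = 0.0147, edgeR). Jund, the family member that most cells make constantly, was at 823 and 560 in controls and 318 and 336 in knockouts, a log2 fold change of -1.11 (SE 0.19, adjusted p = 0.0373, edgeR). Both knockout libraries lay well under the lower control for these genes. Junb, often a brake on Jun, was at 213 and 414 in controls and 162 and 191 in knockouts. The Junb groups came close to each other, and its log2 fold change of -0.87 (SE 0.30) did not pass in edgeR (adjusted p = 0.152).

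Of the Fos genes, Fos stood at 1030 and 994 CPM in controls and 360 and 430 in knockouts. The controls differed little from each other, and the log2 fold change was -1.39 (SE 0.14, adjusted p = 0.0121, edgeR). Fosb was at 377 and 263 in controls and 213 and 196 in knockouts, and its log2 fold change of -0.68 (SE 0.17) did not pass in edgeR (adjusted p = 0.0801). Atf3, at 25.0 and 19.0 in controls and 5.5 and 8.02 in knockouts, fell by 1.73 on the log2 scale (SE 0.22, adjusted p = 0.018, edgeR).

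Egr1 showed the smallest adjusted p of the 10 genes. It was at 239 and 264 CPM in controls and 70.8 and 66.1 in knockouts, a log2 fold change of -1.91 (SE 0.12, adjusted p = 0.00565, edgeR). Replicates of each genotype lay close together for this gene. Egr2 and Egr3 were near the limit of detection. Egr2 had 89 and 67 UMIs in controls against 44 and 42 in knockouts (adjusted p = 0.177, edgeR). Egr3 had 52 and 58 UMIs in controls and 8 and 5 in knockouts, with an adjusted p of 0.0516 in edgeR over all barcodes and 0.0406 without copied barcodes. Ier2 was at 322 and 265 CPM in controls and 138 and 172 in knockouts, and its log2 fold change was -0.95 (SE 0.16, adjusted p = 0.0339, edgeR).

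The libraries were also compared in pairs, called deep and shallow by the median depth of all kept barcodes, copied ones included. In the deep pair (control replicate 1 over knockout replicate 2) the control level of Egr1 was 3.61-fold that of the knockout, and in the shallow pair (control replicate 2 over knockout replicate 1) it was 3.73-fold. For Fos the folds were 2.39 and 2.76, for Ier2 1.88 and 1.92, and for Atf3 3.12 and 3.45. These genes gave like folds in both pairs. In stem-gated cells, of which 9.72% were copied barcodes, the median depth was 3032 and 7441 UMIs in control replicates 1 and 2. It was 6267 and 7853 in knockout replicates 1 and 2. The control called deep was thus the shallower one there, so that the pairs cannot show what depth does to the folds. Jun differed more, at 3.41-fold in the deep pair and 2.13-fold in the shallow pair, and Junb most, at 1.12-fold and 2.56-fold. With these pairs as a block in edgeR (the depth block), 7 of the 10 genes passed, beside 3.42% of all genes lower. When each cell was thinned to 1000 UMIs, which gives shallow and deep cells the same weight, 2 of 8 genes tested passed (Fos and Egr1), beside 0.132% of all genes lower. With the copied barcodes also left out 6 of 8 did, beside 1.42%.

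The share of cells with at least 1 UMI was compared in cells thinned to 1000 UMIs, and it counts cells rather than molecules. Fos was detected in 56.0% of cells of control replicate 1 (95% exact binomial interval, counting error only, in the plot of shares) and 39.0% of control replicate 2, and in 32.4% and 30.5% of the knockout cells. Without copied barcodes the shares were 56.8% and 58.9% in controls and 24.3% and 30.2% in knockouts. Egr1 was detected in 23.3% and 13.5% of control cells and 9.23% and 6.76% of knockout cells, and without copied barcodes in 23.8% and 30.5% against 5.98% and 6.55%. With all barcodes control replicate 2 lay between the other libraries, and without the copied ones it lay beside control replicate 1. Both knockout shares were below both control shares for 8 of the 10 genes (all but Fosb and Egr2), and for 9 of 10 without copied barcodes, Egr2 being the exception. Of the 13844 genes tested, 19.6% and 21.1% had shares apart in the same way. An exact permutation test over 4 libraries cannot go below p = 0.333 (two-sided), which each of these genes reached. In unthinned cells, where depth per cell was not made equal, only Egr3 kept the separation (0.881% of genes did). Jun was in 77.3% and 35.8% of control cells and 44.5% and 66.4% of knockout cells. The cells left out as shallower than 1000 UMIs numbered 1071, 3238, 2191 and 591. Free RNA can give a UMI to a cell that does not express a gene, and no gated type is known to lack these genes, so that background was not measured.

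**Figure D2:**
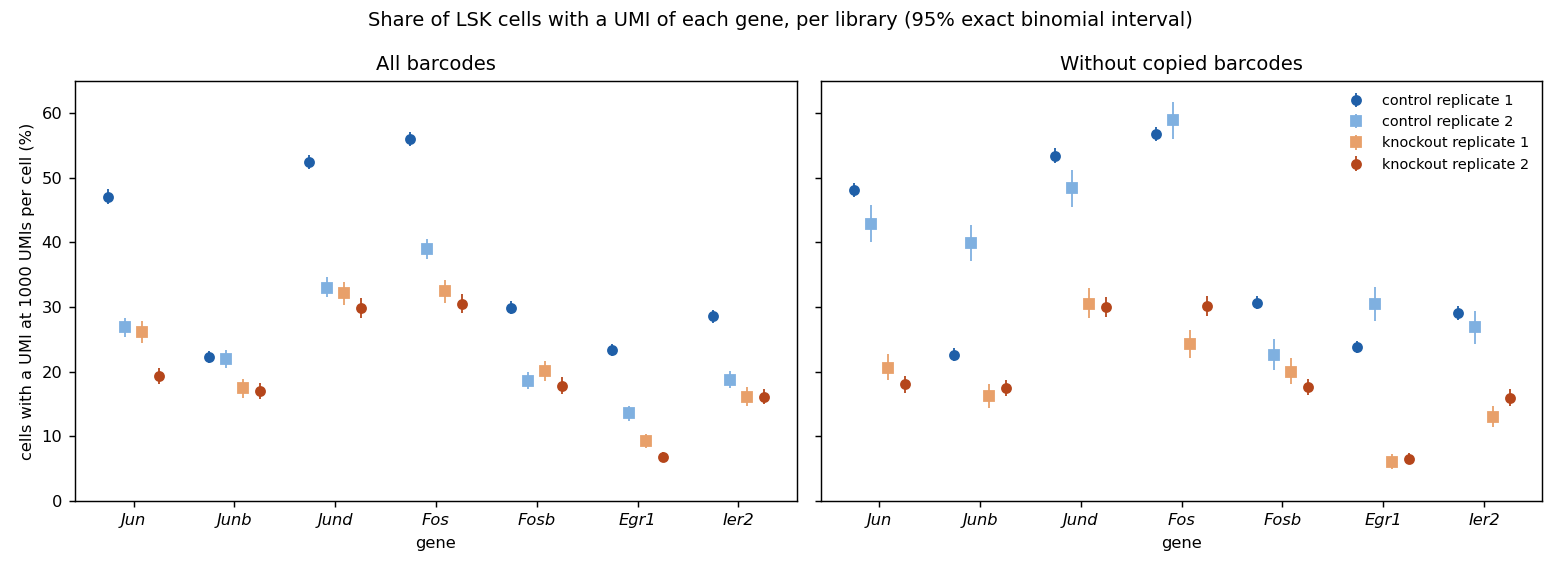
Share of thinned LSK cells with a UMI of each of 7 genes (%), per library, with 95% exact binomial intervals that cover counting error only. On the left, over all barcodes, control replicate 2 lies near the knockout libraries for Jun and Jund and below knockout replicate 1 for Fosb. On the right, without copied barcodes, control replicate 2 lies above the knockout libraries for all 7 genes.

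Detection of the genes was compared within single cells. Genes outside the family were not compared in this way, so that the values are not shown to be particular to it. At 1000 UMIs per cell, 3 or more of the 10 were detected in 49.3% and 26.8% of control cells and in 22.6% and 18.5% of knockout cells, and without copied barcodes in 50.6% and 53.5% against 16.8% and 17.9%. In cells that passed no marker gate and were not copied, Jund was detected in 74.2% of the 1406 Fos-positive cells of control replicate 1 and in 48.6% of the 662 Fos-negative ones. In control replicate 2 the Jund shares were 63.2% and 45.8%, in knockout replicate 1 49.7% and 24.1%, and in knockout replicate 2 35.9% and 25.0%. The order was the same in all 4 libraries. Egr1 followed it with 40.8% against 21.3% and 45.4% against 23.6% in controls, 12.7% against 5.37% in knockout replicate 1 and 7.8% against 6.45% in knockout replicate 2. Among these Fos-positive cells alone, Egr1 was still found in a smaller share of knockout than of control cells. With copied barcodes kept, the Egr1 shares were 39.59% and 20.35% in controls and 20.13% and 9.14% in knockouts, so that control replicate 2 and knockout replicate 1 were nearly equal.

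The cells were then sorted by marker genes into types, none of whose markers is among the 10 genes. A cell passed a gate with at least 2 marker genes of a list and at least 5 of every 10000 UMIs from it. The kept cells that passed none numbered 12292 (ungated). Of these ungated cells 60.0% were copied barcodes, against 9.72% of stem-gated cells. Without copied barcodes the ungated cells fell from 3934 to 418 in control replicate 2 and from 2949 to 676 in knockout replicate 1. The stem gate held 607 cells, and its leading genes over ungated cells were Pdzk1ip1, Procr, Fgd5, Sult1a1 and Vwf. The neutrophil gate held 6679 cells (Elane, Ctsg), a gate of cells that passed for both neutrophil and monocyte lists 2201 (Elane, Ly6c2, F13a1), the lymphoid gate 677 (Dntt, Il7r), the B-lineage gate 548 (Cd79a, Igll1), the megakaryocyte gate 474 (Pf4, Gp1bb), the erythroid gate 304 (Car1, Klf1) and the monocyte and dendritic gate 230. In the last the leading genes were Cd74, H2-Aa and H2-Eb1 of antigen presentation, ahead of Irf8. The other genes named for the gates, and Irf8, are markers of those gates, so that their lead over ungated cells was set by the gating. The 924 cells that passed several gates were left aside. Basophil and plasmacytoid gates held 31 and 6 cells, under 20 in each library, and were not analysed.

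Most of the family stood at a higher level in stem-gated than in ungated cells. In control replicate 1, Fos was at 2849 CPM in stem-gated cells and 1595 in ungated cells, and in control replicate 2 at 2567 and 1118. Egr1 was at 769 and 868 in the stem-gated cells of the controls and 429 and 314 in their ungated cells. Jund was at 2311 and 1568 against 1233 and 635. Both control libraries thus gave a higher level in the stem gate for each of these genes. Over all 4 libraries with the library as a block, 7 of 9 genes tested were higher in stem-gated than in ungated cells (Junb, Jund, Fos, Fosb, Atf3, Egr1 and Ier2), while 11.1% of all genes were. Their log2 differences ran from 0.53 for Ier2 (SE 0.18, adjusted p = 0.0262, edgeR) to 1.34 for Atf3 (SE 0.23, adjusted p = 5.9e-05, edgeR). The count fell when either control library was left out. It was 8 of 9 in the control libraries alone, beside 8.17% of all genes higher, and 1 of 8 in the knockout libraries alone, beside 4.55%.

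Of the 607 stem-gated cells, 388 lay within 2 times of the gate's cut-off. Median depth of stem-gated cells was 3032, 7441, 6267 and 7853 UMIs in the 4 libraries, against 2791, 993.5, 887 and 11634 in ungated cells, and the part of depth in these differences was not tested.

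In the order of control means, Egr1 was at 818 CPM in the stem gate (SD 69.7, n = 2), 476 in the megakaryocyte gate (SD 18.0), 371 in ungated cells (SD 81.1), 333 in the erythroid gate (SD 198), 283 in the lymphoid gate (SD 20.2), 274 in the B-lineage gate (SD 238), 215 in the neutrophil gate (SD 1.8), 197 in the monocyte and dendritic gate (SD 34.3) and 71.7 in the cells of both neutrophil and monocyte gates (SD 41.6). The steps from the stem to the megakaryocyte gate, from there to ungated cells and to the last gate exceeded the sum of both SDs, and the other neighbours did not differ beyond their spread. Jun was highest in the B-lineage gate, at a control mean of 1615 with an SD of 1376 (2588 in control replicate 1 and 642 in control replicate 2), followed by 1506 in the stem gate (SD 540), 1204 in the megakaryocyte gate (SD 493), 840 in ungated cells (SD 322) and 734 in the lymphoid gate (SD 195). It was at 594 in the erythroid gate (SD 121), 566 in the neutrophil gate (SD 152), 564 in the monocyte and dendritic gate (SD 291) and 413 in the cells of both neutrophil and monocyte gates (SD 115). No neighbours in the order for Jun differed by more than the sum of their SDs.

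**Figure D3:**
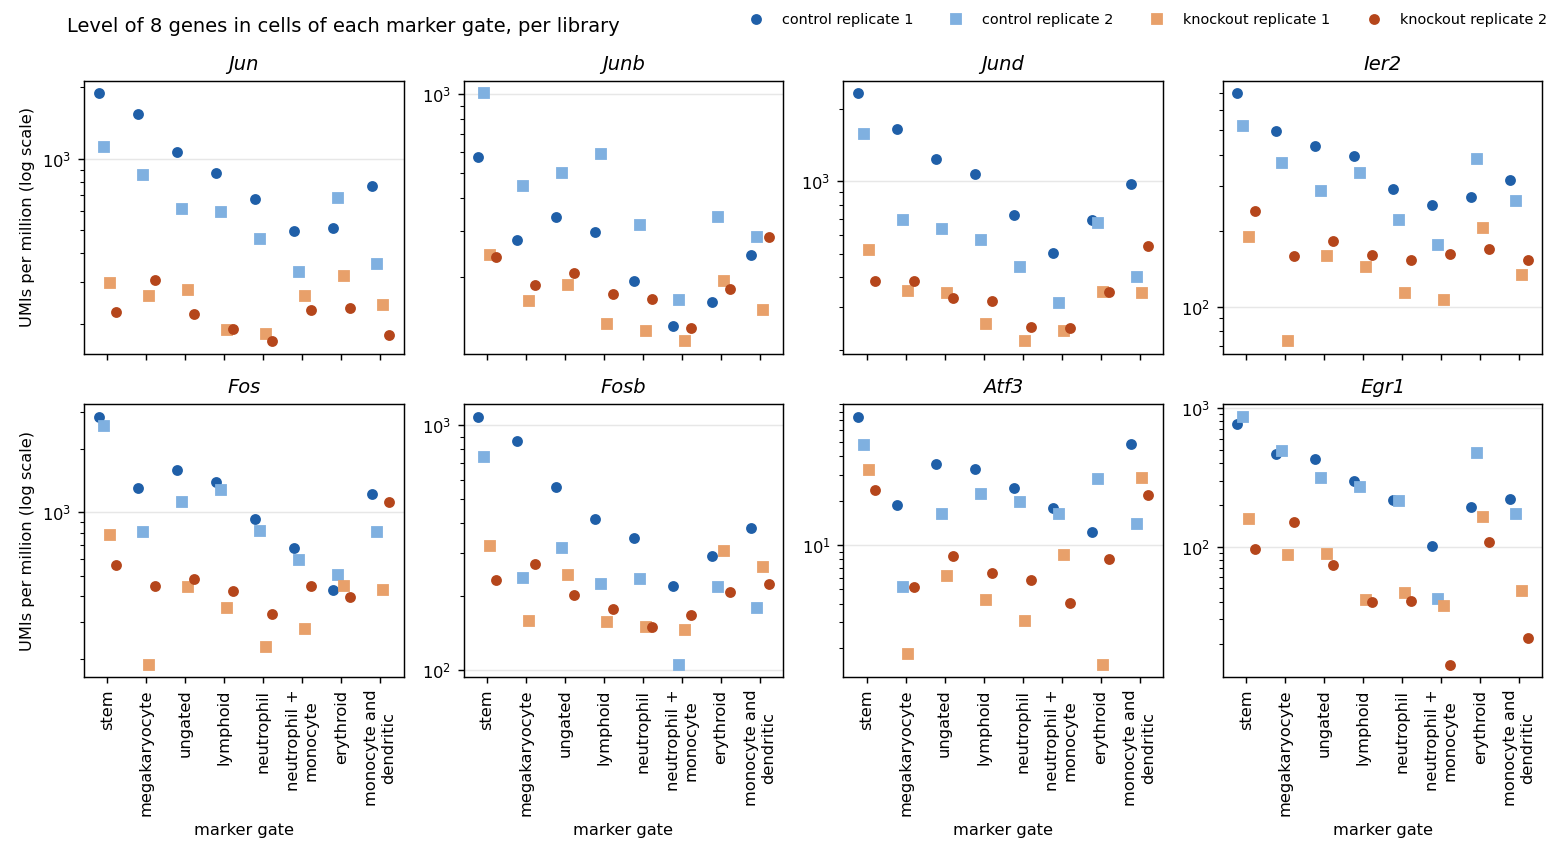
CPM (log scale) of 8 genes in the cells of 8 gates, 1 symbol per library. The B-lineage gate, where the genotypes overlapped for all 10 genes, is not drawn. In stem-gated cells the 2 control libraries lie above the 2 knockout libraries for all 8 genes, and in erythroid cells the genotypes overlap for Fos, Fosb and Junb.

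In the neutrophil gate 2 of 9 genes were lower than in ungated cells (Egr1 and Egr2), with 14.5% of all genes lower. That count fell when control replicate 1 or either knockout library was left out, and without copied barcodes it was 7 of 8, beside 18.9% of all genes. In the cells of both neutrophil and monocyte gates 5 of 9 were lower (Junb, Jund, Fosb, Egr1 and Ier2), with 25.2% of all genes lower. Egr1 had the largest difference there, at -1.92 on the log2 scale (SE 0.29, adjusted p = 9.2e-07, edgeR). In the B-lineage gate 4 of 9 were higher than in ungated cells (Jun, Jund, Fosb and Egr2), with 12.2% of all genes higher, and the count fell without knockout replicate 1. Of the 156 B-lineage cells in control libraries 137 were copied, and only 12 and 7 remained without them, so that the control side of this gate rests mostly on copied barcodes. No gene of the family was called against ungated cells in the lymphoid, megakaryocyte, erythroid or monocyte and dendritic gates by edgeR, where 10%, 13.4%, 36.2% and 7.42% of all genes were called in either direction. At an unadjusted p under 0.05 there were 1, 1, 1 and 2 genes, and DESeq2 called 0, 0, 0 and 1.

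The knockout against control comparison was repeated within each gate. In stem-gated cells 8 of 8 genes tested were lower in knockout, with 2.6% of all genes called lower. Jun was at 1887 and 1124 CPM in controls and 297 and 224 in knockouts, a log2 fold change of -2.63 (SE 0.25, adjusted p = 3.7e-10, edgeR). Egr1, at 769 and 868 in controls and 159 and 96.0 in knockouts, had a log2 fold change of -2.84 (SE 0.26, adjusted p = 8.8e-11, edgeR). Fos was at 2849 and 2567 against 779 and 560, with a log2 fold change of -2.12 (SE 0.24, adjusted p = 1.4e-08, edgeR). For these genes every control value was more than 2 times every knockout value. Jund, Junb, Fosb, Ier2 and Atf3 changed by -2.21, -1.83, -1.83, -1.58 and -1.29 on the log2 scale, all with adjusted p under 0.05. Egr2 and Egr3 were under the filter on low counts: Egr2 had 2 and 7 UMIs in control stem cells and 0 and 0 in knockouts, and Egr3 5 and 3 and 0 and 0. In the 300 and 108 thinned control stem cells Egr1 was detected in 51.3% and 43.5%, and in the 50 and 117 of the knockouts in 10% and 9.4%.

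In ungated cells 10 of 10 genes were lower in knockout, with 4.35% of all genes called lower. Egr1 was at 429 and 314 CPM in controls and 88.2 and 73.7 in knockouts (log2 fold change -2.17, SE 0.16, adjusted p = 3.9e-05, edgeR). Egr3, with 17 and 27 UMIs in controls and 4 and 4 in knockouts, also passed here (adjusted p = 0.00595, edgeR). None of the 10 passed in ungated cells thinned to 1000 UMIs with all barcodes kept (8 of 8 tested had an unadjusted p under 0.05, and 0.0312% of all genes were called lower). When the copied barcodes were left out as well 8 of 8 passed, beside 1.84% of all genes. In lymphoid-gated cells 7 of 8 were lower (all but Fosb), beside 1.18% of all genes. There Egr1 was at 297 and 269 in controls and 41.3 and 40.0 in knockouts, with each pair of replicates close. The lymphoid count fell whichever library was left out, in fits that hold 1 library of a genotype.

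In neutrophil-gated cells 7 of 9 genes were lower in knockout (all but Junb and Egr2), beside 4.16% of all genes. Fos was at 931 and 817 CPM in controls and 230 and 327 in knockouts, and Atf3 at 24.2 and 19.6 against 3.04 and 5.79. In megakaryocyte-gated cells 5 of 7 were lower (Jun, Jund, Fos, Egr1 and Ier2), beside 0.396% of all genes, and DESeq2 called 2. The megakaryocyte count was 1 with replicate number as a block. In erythroid-gated cells 2 of 8 were lower (Jun and Jund), beside 1.25% of all genes. The count fell without either knockout library and rose without control replicate 1. Fos in erythroid cells was at 430 and 504 in controls and 446 and 398 in knockouts, so that the genotypes overlapped.

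The remaining gates gave few calls. In the monocyte and dendritic gate 1 of 7 genes was lower (Egr1, at 221 and 172 CPM in controls and 48.1 and 21.8 in knockouts), beside 0.488% of all genes. The count fell without control replicate 2 and rose without knockout replicate 2. These Egr1 levels rested on 118 and 25 UMIs in controls and 17 and 4 in knockouts. Without copied barcodes the monocyte and dendritic gate kept 7 cells in control replicate 2, under 20, and was not refitted. In the cells of both neutrophil and monocyte gates 0 of 8 passed in edgeR and in DESeq2, 6 of 8 had an unadjusted p under 0.05 in edgeR, and 0.405% of all genes were called lower. Both knockout levels lay below both control levels there for 8 of the 10 genes and for 16.8% of all genes. Without copied barcodes these cells fell from 74 to 16 in knockout replicate 2, under 20, and were not refitted. Leaving out either control library or knockout replicate 2 raised the count of genes that passed in these cells. In the B-lineage gate 0 of 7 passed in edgeR and in DESeq2, with 0 at an unadjusted p under 0.05 in edgeR and 2 in DESeq2, beside 0% of all genes, and the genotypes overlapped for all 10, while 10.7% of all genes had both knockout levels below both control levels. The B-lineage count rose without knockout replicate 1. Without copied barcodes 8 of 8 genes were lower in the stem gate, 10 of 10 in ungated cells, 8 of 8 in the lymphoid gate, 6 of 7 in the megakaryocyte gate, 2 of 8 in the erythroid gate and 7 of 9 in the neutrophil gate. The shares of all genes called lower in those fits were 2.04%, 4.9%, 1.99%, 0.485%, 1.05% and 1.8%.

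**Figure D4:**
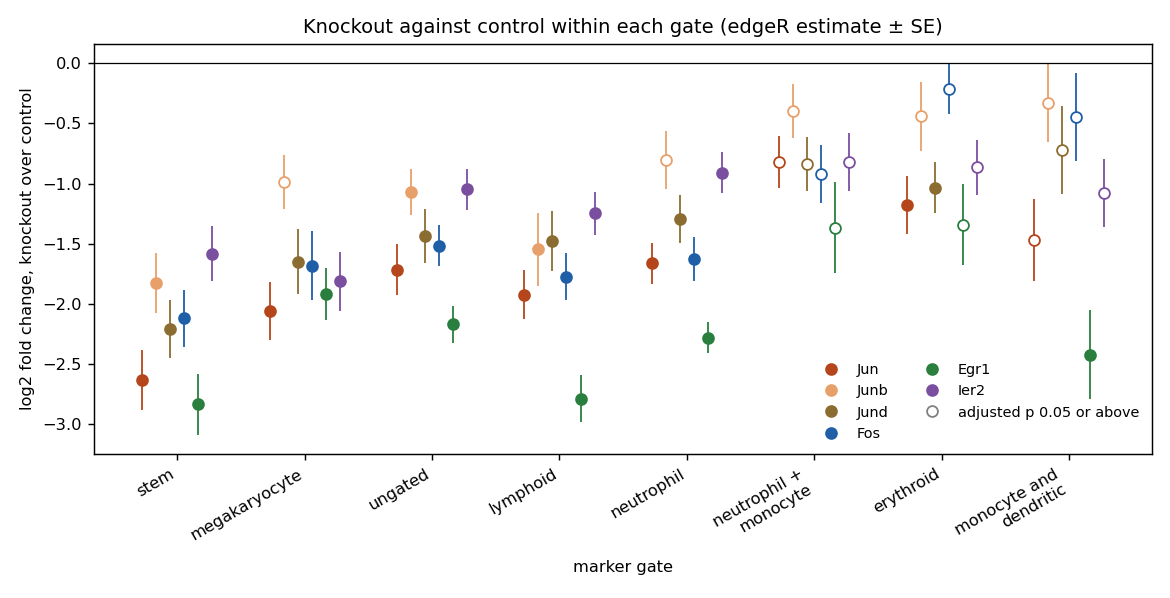
Log2 fold change of knockout over control (edgeR, ± SE) of 6 genes within 8 gates, from sums over 2 control and 2 knockout libraries, with filled symbols where the adjusted p was under 0.05. The B-lineage gate, where no gene of the family passed, is not drawn. All 6 genes are filled in the stem, ungated and lymphoid gates, and Fos lies at -2.12 in stem cells and near 0 in erythroid cells.

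Whether the knockout effect differed between a gate and ungated cells was tested as the interaction of genotype and gate. In stem-gated cells 4 of 10 genes had a more negative effect than in ungated cells (Jun, Junb, Jund and Fosb), while 0.0675% of all genes did. The difference for Jun was -0.88 on the log2 scale (SE 0.15, adjusted p = 0.00111, edgeR). Without copied barcodes it was -0.63 (adjusted p = 0.037, edgeR), and 2 genes passed (Jun and Fosb). In erythroid-gated cells the effect was less negative for 4 of 9 (Junb, Fos, Fosb and Egr1), beside 1.03% of all genes, and for 6 without copied barcodes. Fos had the largest of these, a difference of 1.34 (SE 0.17, adjusted p = 2.8e-12, edgeR). In the cells of both neutrophil and monocyte gates it was less negative for 6 of 10, beside 1.73% of all genes. Without copied barcodes those cells fell from 149 to 55 in knockout replicate 1 and from 74 to 16 in knockout replicate 2, and were not refitted. Fos in the monocyte and dendritic gate (beside 0.531% of all genes) and Jund and Egr1 in the B-lineage gate (beside 0.503%) were also less negative, and Ier2 in the megakaryocyte gate was more negative (beside 0.201%). In the lymphoid and neutrophil gates 0 of 10 differed, with 2 and 1 at an unadjusted p under 0.05, beside 0.418% and 0.199% of all genes in either direction, and without copied barcodes the effect in the neutrophil gate was less negative for 4 (Jun, Junb, Jund and Ier2). In the megakaryocyte gate without copied barcodes Ier2 was no longer called and Egr1 was less negative by 0.75. DESeq2 was not run for these differences, and the shares of all genes beside them are those of the fits with all barcodes. After thinning to 1000 UMIs, 0 genes of the family passed in the 7 gates fitted, which leave out the B-lineage gate. In the cells of both neutrophil and monocyte gates the difference turned to -0.34 for Junb and -0.080 for Fosb. In stem-gated cells it was then -0.95 for Jun, -1.05 for Junb, -1.10 for Jund and -1.30 for Fosb (SE 0.33, 0.35, 0.30 and 0.35). In erythroid-gated cells it was 0.13 for Junb, 0.54 for Fos, 0.33 for Fosb and 1.20 for Egr1 (SE 0.49, 0.38, 0.43 and 0.51).

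Genes around the family were taken from 4 lists and read in the same edgeR fit over all LSK cells. Of 48 other immediate early genes 46 were tested, of which 8 were lower and 0 higher, with a median log2 fold change of -0.25. DESeq2 called 16 of them lower and 3 higher. Ccl3 and Ccl4, chemokines of activated blood cells, were at 118 and 155, and 99.7 and 153, CPM in controls and at 17.9 and 16.8, and 27.5 and 28.8, in knockouts. Their log2 fold changes were -3.00 and -2.20 (SE 0.17 and 0.21, adjusted p = 0.00565 and 0.0108, edgeR). Rhob, a small GTPase, was at 71.0 and 66.8 against 29.1 and 26.8. Btg2, an inhibitor of proliferation, was at 81.4 and 116 against 36.9 and 39.4, and Nr4a1, an orphan nuclear receptor, at 31.4 and 62.5 against 15.0 and 13.7. Klf6 and Klf2, Kruppel-like factors, and Ppp1r15a, a phosphatase subunit of the stress response, changed by -1.15, -0.79 and -0.68 on the log2 scale. In stem-gated cells 24 of 39 genes of this list were lower and 1 higher, beside 2.6% of all genes lower. Their median was -1.21 beside -0.02 over all genes. A smaller part was lower elsewhere, from 19 of 45 in ungated cells to 4 of 30 in the erythroid gate and 0 of 26 in the B-lineage gate. In the neutrophil gate 14 of 45 were lower and 3 higher, and in the monocyte and dendritic gate 2 of 27 were lower and 1 higher.

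Few genes of the other lists were called over all LSK cells. Of 20 other AP-1 and Egr genes 0 were lower and 1 higher, with 3 at an unadjusted p under 0.05, and the summed level of the list was 462 and 448 CPM in controls and 451 and 463 in knockouts. The gene that was higher was Fosl1, a Fos protein without a strong activation domain, with 15 and 9 UMIs in controls and 38 and 90 in knockouts (adjusted p = 0.0461, edgeR), and no gene of that list was called without copied barcodes. Of 26 upstream factors and kinases, such as Srf and Creb1, 0 were called by edgeR and 1 by DESeq2, with 3 at an unadjusted p under 0.05 and a median of -0.01. Of 14 heat shock genes 0 were called by edgeR and 2 were higher by DESeq2, with 4 at an unadjusted p under 0.05 and a median of 0.23. Their median was 0.45 in ungated cells, 0.30 in the neutrophil gate and 0.27 in the stem gate, beside -0.005, -0.002 and -0.02 over all genes. There edgeR called 1 of 13, 2 of 13 and 2 of 10 higher, and 1 lower in the stem gate. No heat shock gene was called by edgeR in the other gates with all barcodes. DESeq2 called 4 of 13 higher in ungated cells, 4 of 13 in the neutrophil gate, 2 of 10 in the stem gate and 1 of 10 in the lymphoid gate. Without copied barcodes edgeR called 3 of 13 higher in ungated cells, 0 of 13 in the neutrophil gate and 1 of 10 in the lymphoid gate. In the stem gate 1 of 10 was then higher and 1 lower. The summed heat shock level was 11686 and 9673 CPM in controls and 12299 and 12720 in knockouts, and the median mitochondrial share of cells was 2.78% to 2.96% in the 4 libraries. The part of cell handling in the levels of the 10 genes was not tested.

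Outside these lists, the genes whose level followed the family most closely over 36 points (4 libraries in 9 gates) were Skil, H3f3b, Taf7, Taz and Zbtb20. The correlation of their log2 level with the mean z-score of the 10 genes was 0.95, 0.92, 0.84, 0.83 and 0.82, as a description over points that share libraries and depth. Skil, a repressor of Smad signalling, was at 47.5 and 58.0 CPM in controls and 23.8 and 23.7 in knockouts over all LSK cells. H3f3b, which encodes histone H3.3, was at 2355 and 2186 against 1706 and 1975. Within the knockout libraries alone the correlation was 0.87 for Skil and 0.36 for Taf7, against 0.97 for Taf7 in the control libraries alone.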

How the data were processed

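The authors sorted live LSK cells, made 10x Genomics 3′ libraries and, per the labels, processed them with Cell Ranger 3.1 on mm10. The deposited matrices hold UMI counts per gene and barcode, raw whole numbers without normalization. The members and lists were chosen with earlier results of these data known, and the cut-offs of the marker gates were set after marker counts, not the members' values, had been seen. Barcodes needed at least 200 genes, and mitochondrial UMIs up to 10%; doublets were not removed. Counts were summed per library and gate where each library held at least 20 cells. The sums were tested with edgeR 4.0.16 in R 4.3.3 (filterByExpr, trimmed mean of M-values, quasi-likelihood F test, Benjamini-Hochberg at 0.05) over all genes that passed the filter. Levels are CPM of the summed counts (total 25111828 to 60330267 UMIs a library). An SE is the absolute log2 fold change over the root of the F statistic. Gates were compared with ungated cells with the library as a block. Genes named are all 10 members, the genes of the lists past the threshold in the fit over all LSK cells, and the 5 genes outside them most correlated with the members' mean z-score at a mean of at least 20 CPM. The edgeR steps were run on simulated counts with a common dispersion and no barcodes shared between libraries, which does not test the calls in these data. Promoter windows came from RefSeq on GRCm38.p6, which held 7 of the 10 genes, and the windows of 5 were printed. Alternatives were DESeq2 1.42.0, other size factors, no low-count filter, at least 500 genes per cell, a stricter gate, blocks for replicate number and depth, thinning, copied barcodes left out and each library left out. Thinning together with copied barcodes left out, the fits in 1 genotype and the alternatives for differences of effect and for the other lists were chosen after seeing the data. With 2 libraries per genotype, p-values of knockout against control rest on the spread between 2 pools of animals, which edgeR pulls toward that of all genes tested. Those of gates against ungated cells and of differences of effect rest on how differences within a library varied between libraries, with the same pull. Depth limits Egr2 and Egr3, which had at most 89 UMIs a library.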

Additional observations from a re-analysis of the deposited data

Results flagged for a closer look

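These values are differences of the log2 knockout effect between a gate and ungated cells that passed the interaction test in edgeR (adjusted p under 0.05). More negative effects were measured in stem-gated cells for Jun (-0.88), Junb (-0.70), Jund (-0.79) and Fosb (-0.89), and in megakaryocyte-gated cells for Ier2 (-0.66). Without copied barcodes Junb and Jund in stem-gated cells and Ier2 in megakaryocyte-gated cells did not pass (adjusted p = 0.5185, 0.0583 and 0.0539, edgeR). Less negative effects were measured in erythroid-gated cells for Junb (0.67), Fos (1.34), Fosb (0.87) and Egr1 (0.96), and all of these passed without copied barcodes. In the cells of both neutrophil and monocyte gates they were less negative for Jun (0.89), Junb (0.69), Jund (0.59), Fos (0.57), Fosb (0.81) and Egr1 (0.86). After thinning to 1000 UMIs the differences of Junb and Fosb turned to -0.34 and -0.080 there, and none of the 6 passed. Without copied barcodes knockout replicate 2 kept 16 of those cells, too few for a fit. Effects were also less negative in B-lineage-gated cells for Jund (1.04) and Egr1 (1.42), a gate whose control cells were mostly copied barcodes, and in the monocyte and dendritic gate for Fos (0.96). After thinning no difference passed in any gate fitted, and the B-lineage gate was not fitted.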

How the results depend on the processing

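The 6 members called lower over all LSK cells became 10 without the low-count filter and 2 after thinning, the latter beside 0.132% of all genes lower. Without the filter the Egr1 p fell from 1.4e-06 to 2.0e-38 in edgeR, while its log2 fold change stayed at -1.91. Counts given without a share of all genes, here and in the gates above, describe these genes alone. So do changes of a count with a library left out, where a genotype holds 1 library. Neither the 10 members over all LSK cells nor the called pairs of member and gate, within gates or against ungated cells, changed sign under the alternatives run. The 40 pairs of member and gate called lower within gates became 23 after thinning. Against ungated cells, the 11 pairs called higher became 7 at 500 genes per cell, 7 without copied barcodes, 17 without the filter and 7 after thinning. Their count fell or stayed the same with a library left out. Of these 11 pairs, 4 lay in the B-lineage gate. At 500 genes per cell, without copied barcodes and after thinning, that gate held under 20 cells in a control library and was not fitted. The 7 pairs called lower became 16 in the control libraries alone, 11 without copied barcodes, 24 without the filter, 13 with the stricter gate, 15 after thinning and 3 to 9 with a library left out. Of differences of the knockout effect, the 5 more negative became 2 without copied barcodes and 0 after thinning. Of the 13 less negative, 4 lay in gates that could be fitted without copied barcodes, and these 4 and 7 others were then called (11). After thinning 0 of the 11 in gates fitted were called, and in the cells of both neutrophil and monocyte gates Junb (-0.34) and Fosb (-0.080) changed sign. The 8 other immediate early genes called lower became 16 with DESeq2, 20 without the filter, 5 after thinning and 8 to 22 with a library left out. The 8 members whose shares did not overlap became 1 in unthinned cells. Beyond the gates that were not fitted, the cause of these changes was not tested. Nothing in the labels pairs the replicate numbers, and with the replicate number as a block 9 members, 46 pairs within gates and 16 other immediate early genes were lower. Same-numbered libraries deviated with a correlation of -0.0041 over genes. Depth limits Egr2 and Egr3.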
